A study of Mus musculus with 6 samples.

Results

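The genes described here encode enzymes that remove superoxide and peroxides from cells, and the cytosolic thioredoxin, which restores some of the peroxiredoxins. They are Sod1, Sod2, Cat, Prdx1, Prdx2, Prdx3, Prdx4, Prdx5, Prdx6 and Txn1. They were chosen by name, as the rows of the deposited gene table that carry these symbols, and all 10 were found among its 27198 genes. RNA was sequenced from sorted hematopoietic stem cells (HSCs), from which all blood lineages arise, in 3 libraries of control (Ctrl) mice and 3 libraries of mice given ferulic acid (FA), a plant phenolic acid, over the long term (l-FA). Mice of both groups were wild-type male C57BL/6, aged 8 to 10 weeks, and FA was injected intraperitoneally at 50 mg/kg once a day over 30 days. Ctrl mice were given vehicle. HSCs were sorted by surface phenotype as lineage-, c-Kit+, Sca1+, CD34- and CD135-. The number of mice behind a library is not given in the sources used here, so the p-values below measure the spread between libraries, which may be technical.

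Superoxide dismutases turn superoxide, a by-product of respiration and of oxidases, into hydrogen peroxide. Catalase breaks hydrogen peroxide down in peroxisomes, and peroxiredoxins reduce it through a reactive cysteine that is then restored, in most family members, by thioredoxin and thioredoxin reductase. HSCs are known to lose their capacity for self-renewal when reactive oxygen species accumulate, and the comparison of l-FA with Ctrl asks how the transcriptome of these cells differs after the antioxidant FA was supplied.

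Depth hardly differed between groups, with 19287735 to 20380610 counts in a Ctrl library and 19505689 to 20376031 in an l-FA library. The sort genes Kit, which encodes c-Kit, and Ly6a, which encodes Sca1, were present in all libraries at means of 1067 and 45.0 CPM (counts scaled to the size of the library) in Ctrl. At an adjusted p under 0.05 (edgeR), 25.5% of all genes tested were higher and 25.0% lower in l-FA. Of 9 HSC sort and identity genes, 8 were higher and 1, Hlf, was lower. Their summed levels were 3620 to 3701 CPM in Ctrl and 4459 to 4582 CPM in l-FA. Most of that sum, and most of its difference between groups, came from 2 genes of this list the proteins of which the sort selected against, Cd34 and Flt3 (CD135), at 1343 and 759 CPM in Ctrl and 1579 and 1183 CPM in l-FA. Among 12 granulocyte and monocyte markers, 11 were lower and 1 was higher in l-FA at an adjusted p under 0.05. Their summed level was between 22999 and 23847 CPM in Ctrl libraries and between 5766 and 6097 CPM in l-FA libraries. Most of this sum was Mpo, with means of 18544 CPM in Ctrl and 4938 CPM in l-FA. Summed levels of erythroid markers (73.5 to 76.7 CPM in Ctrl, 79.3 to 81.0 in l-FA), megakaryocyte markers (209.7 to 219.6, 297 to 304), B cell markers (54.9 to 55.6, 63.2 to 66.0), mast cell and basophil markers (148 to 155, 210.5 to 218.7) and proliferation genes (4456 to 4600, 4188 to 4225) also lay apart between the groups, and no marker was at 0 in all 6 libraries. The megakaryocyte and B cell sums were mostly Itga2b and Cd79b, and Slc4a1, Pax5 and Cd3e were at or near 0. Of 5 T and NK cell markers 1 was high enough to be tested, Nkg7, with means of 556 CPM in Ctrl and 307 CPM in l-FA, and the others were under 1 CPM in mean. The part of these differences in the results on antioxidant genes was not tested, and fewer cells of a type and less RNA per cell cannot be told apart in bulk libraries.

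The 250 bases before the annotated start of 4 of these genes are shown because the genes lie on both sides of the comparison below, with Cat and Prdx4 higher and Prdx1 and Prdx3 lower in l-FA. The sequences are RefSeq's for GRCm38.p6 and are written 5′ to 3′ on the gene's own strand: Cat at chr2:103485154-103485403 (minus strand), Prdx4 at chrX:155338461-155338710 (minus), Prdx1 at chr4:116685349-116685598 (plus) and Prdx3 at chr19:60874539-60874788 (minus). Capitals mark matches, on either strand, to the antioxidant response element core TGACNNNGC, an AP-1 site TGANTCA, the forkhead site TGTTTAC, the E-box CACGTG and the CCAAT box, and the capitals of overlapping matches run together.
Cat: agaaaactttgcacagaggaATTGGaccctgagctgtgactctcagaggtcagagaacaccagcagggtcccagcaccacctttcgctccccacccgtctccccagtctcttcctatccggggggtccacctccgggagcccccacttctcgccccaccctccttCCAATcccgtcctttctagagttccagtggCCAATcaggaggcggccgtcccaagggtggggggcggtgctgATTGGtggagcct
Prdx4: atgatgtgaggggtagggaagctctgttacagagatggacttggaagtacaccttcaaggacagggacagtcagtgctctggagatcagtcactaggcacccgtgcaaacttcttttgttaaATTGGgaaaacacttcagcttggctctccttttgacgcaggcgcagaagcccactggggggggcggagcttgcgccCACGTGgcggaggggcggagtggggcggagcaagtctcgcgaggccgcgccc
Prdx1: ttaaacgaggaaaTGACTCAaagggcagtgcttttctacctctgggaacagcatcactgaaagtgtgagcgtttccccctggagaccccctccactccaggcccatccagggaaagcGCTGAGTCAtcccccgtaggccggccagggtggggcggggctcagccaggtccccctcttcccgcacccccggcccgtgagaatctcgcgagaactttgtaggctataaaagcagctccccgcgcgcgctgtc
Prdx3: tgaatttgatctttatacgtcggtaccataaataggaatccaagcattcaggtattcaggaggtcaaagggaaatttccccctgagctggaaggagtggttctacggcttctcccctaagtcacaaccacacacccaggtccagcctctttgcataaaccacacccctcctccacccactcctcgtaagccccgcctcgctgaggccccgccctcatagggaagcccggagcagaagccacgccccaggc

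The antioxidant response element, to which NRF2 binds with small MAF proteins, was matched in 2 of the 9 genes that have an entry in the RefSeq table, Sod1 and Prdx1, and in 10.2% of all 32841 promoters of this length. In Prdx1 the match read on the opposite strand, GCTGAGTCA, and it shared its last 7 bases with 1 of the gene's 2 AP-1 matches, a motif held by 6.75% of promoters and by no other of the 9 genes. CCAAT, the site of NF-Y, occurred in Sod1, Sod2, Cat and Prdx4, 4 of 9 genes, beside 33.9% of all promoters, and Cat held 4 matches. Prdx4 carried the E-box, found in 6.02% of promoters, and no forkhead match (3.17% of promoters) was found in any of the 9 windows. The Prdx3 window held none of the 5 motifs. These are matches of letters and do not show that a factor was bound.

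In HSCs of l-FA mice, 7 of the 10 genes differed from Ctrl at an adjusted p under 0.05 by edgeR's quasi-likelihood test, and they did not move together. Cat, Prdx2 and Prdx4 were higher and Prdx1, Prdx3, Prdx5 and Prdx6 lower, while Sod1, Sod2 and Txn1 did not pass. Among all 16520 genes tested, 50.5% passed, with 25.5% higher and 25.0% lower. Among the 7188 genes with mean levels between those of the lowest and the highest of the 10 (25.9 to 398 CPM), 57.6% passed, 25.3% higher and 32.3% lower. The changes were modest in size: no gene passed the study's limits of an adjusted p under 0.05 and a change above 2-fold, by edgeR or by DESeq2, which by edgeR 11.8% of the genes tested did. Their median log2 fold change was -0.17, beside 0.00 over all genes tested, and the median size of a log2 fold change was 0.28, beside 0.29 over all genes tested and 0.21 over the genes in their range of levels. Tested against a change of at least 1.2-fold (edgeR's glmTreat), Prdx4 stayed higher and Prdx5 and Prdx6 lower.

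**Figure D1:**
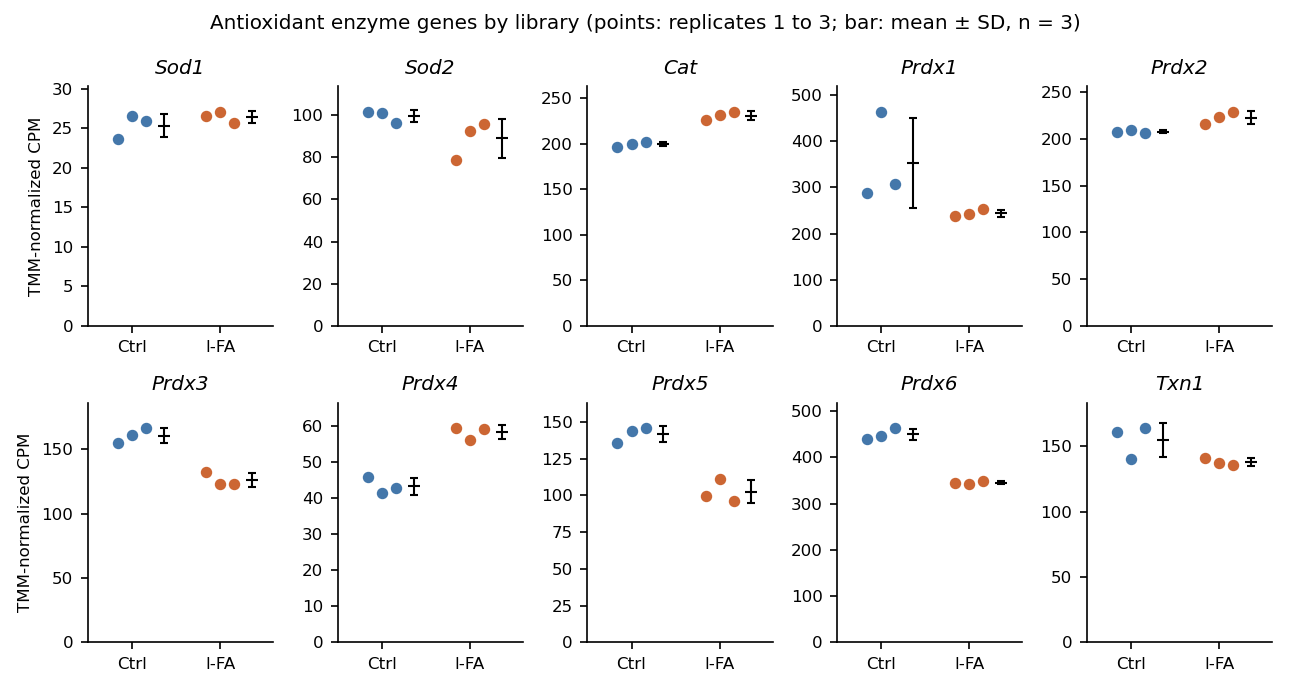
Levels of the 10 genes by library, in TMM-normalized CPM on axes that start at 0, with 3 Ctrl (blue) and 3 l-FA (orange) points and the mean ± SD beside them. The l-FA points lie above all Ctrl points for Cat, Prdx2 and Prdx4 and below them for Sod2, Prdx1, Prdx3, Prdx5 and Prdx6, and the groups overlap for Sod1 and Txn1.

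**Figure D2:**
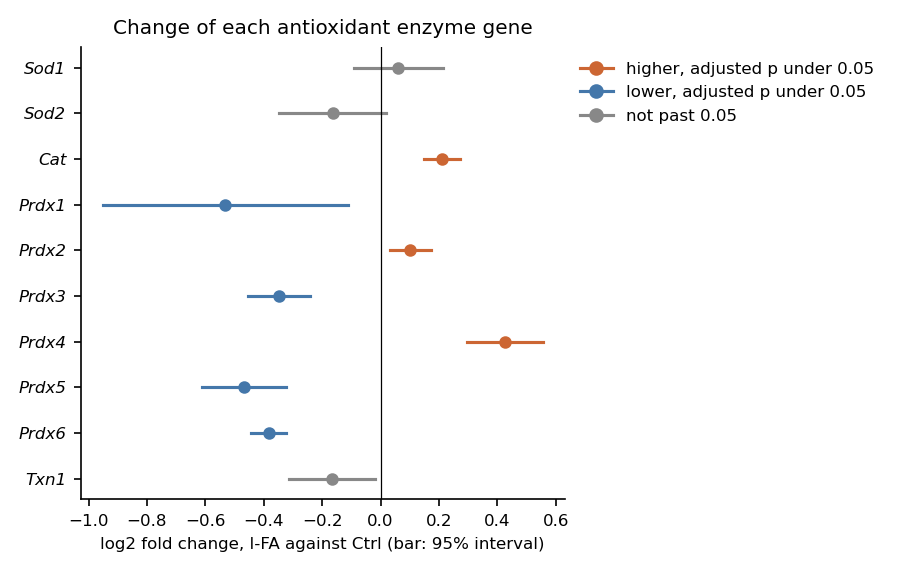
The log2 fold change of each gene, l-FA against Ctrl, as a point with its 95% interval, orange where higher and blue where lower at an adjusted p under 0.05 and gray where not past it. Prdx4 lies highest at 0.43 and Prdx1 lowest at -0.53, with the widest interval.

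Neither superoxide dismutase passed the test. Sod1 (ENSMUSG00000022982), the copper and zinc enzyme of the cytosol, had 23.7, 26.5 and 25.8 CPM in Ctrl and 26.6, 27.1 and 25.6 CPM in l-FA, normalized by the trimmed mean of M-values (TMM) as are all CPM here. Its groups overlapped, with the lowest value in Ctrl replicate 1. The log2 fold change was 0.06 (SE 0.064, 95% interval -0.09 to 0.21, adjusted p = 0.47, edgeR). Sod1 is listed on chromosome 16 from 90017642 to 90023217 and shares 650 bases with Scaf4, which lay between 1149 and 1282 counts in Ctrl and between 1302 and 1359 in l-FA.

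Sod2 (ENSMUSG00000006818, chromosome 17 from 13225733 to 13258950), the manganese enzyme of the mitochondrial matrix, had 101.5, 100.9 and 96.3 CPM in Ctrl and 78.5, 92.4 and 95.8 CPM in l-FA. The groups did not overlap, but l-FA replicate 3 came within 1 CPM of the lowest Ctrl library and l-FA replicate 1 lay well below the others. With a log2 fold change of -0.16 (SE 0.076, interval -0.35 to 0.02) Sod2 did not pass (edgeR adjusted p = 0.12). Without l-FA replicate 1 its log2 fold change was -0.07.

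Cat rose. The gene for catalase (ENSMUSG00000027187, chromosome 2 from 103284194 to 103315505) had 196.8, 199.9 and 201.6 CPM in Ctrl and 225.7, 231.7 and 235.2 CPM in l-FA. All l-FA libraries lay above all Ctrl libraries, and libraries of a group lay close together, with means of 199 ± 2.43 (SD, n = 3) and 231 ± 4.78 CPM. The difference was 1.16-fold, a log2 fold change of 0.21 (SE 0.026, edgeR adjusted p = 0.0008). It ranged from 0.20 to 0.24 when each library was left out in turn and passed each time.

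The cytosolic typical 2-Cys peroxiredoxins, Prdx1 and Prdx2, moved in opposite directions, and both calls were sensitive to the libraries included. Prdx1 (ENSMUSG00000028691, chromosome 4 from 116542741 to 116558019) had 287.8, 464.3 and 307.6 CPM in Ctrl and 237.8, 242.0 and 253.1 CPM in l-FA. Every l-FA value was under every Ctrl value, and Ctrl replicate 2 stood far above the other Ctrl libraries. Prdx1 fell by 30.8%, a log2 fold change of -0.53 (SE 0.17, interval -0.95 to -0.11, edgeR adjusted p = 0.0422). Without Ctrl replicate 2 the log2 fold change shrank to -0.29, with an SE of 0.041 and an adjusted p of 0.00364 from edgeR. Leaving out l-FA replicate 1, 2 or 3 instead kept the direction and lost the call, at edgeR adjusted p-values of 0.112, 0.103 and 0.0873.

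Prdx2 (ENSMUSG00000005161, chromosome 8 from 85696216 to 85701463), the peroxiredoxin known for its abundance in red cells, had 207.7, 209.3 and 206.0 CPM in Ctrl and 215.7, 223.7 and 229.2 CPM in l-FA. The groups did not overlap, and the gap between the highest Ctrl and the lowest l-FA library was narrower than the spread among l-FA libraries. The rise was 1.07-fold, a log2 fold change of 0.10 (SE 0.029, edgeR adjusted p = 0.0263), the smallest of the 7 that passed. Its call held with l-FA replicate 1 left out (edgeR adjusted p = 0.00917) and was lost, at adjusted p-values from 0.0505 to 0.0723, without Ctrl replicate 1, 2 or 3 or without l-FA replicate 2 or 3.

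Prdx2 shares sequence with its neighbours and with copies. It overlaps Junb by 351 bases, and Junb went from between 10388 and 10915 counts in Ctrl to between 17658 and 18298 in l-FA. Whether counting used strand is not given in the sources used here, and the part of Junb reads in the Prdx2 difference was not tested. Rnaseh2a overlaps the other end by 181 bases, with 1613 to 1680 counts in Ctrl and 1640 to 1797 in l-FA. The processed pseudogene Prdx2-ps1 had 438, 340 and 384 counts in Ctrl and 552, 472 and 409 in l-FA, so reads could be split between it and Prdx2. With the counts of such copies added to their parent genes, Prdx2 had a log2 fold change of 0.11 and an edgeR adjusted p of 0.00773. The other copies were small: Txn-ps1 had 18 to 23 counts, Prdx6b at most 6, Prdx6-ps2 at most 4 and Prdx2-ps2 at most 1.

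The organelle peroxiredoxins also split. Prdx3 (ENSMUSG00000024997, chromosome 19 from 60852489 to 60862994), the typical 2-Cys enzyme of mitochondria, had 154.7, 160.7 and 166.3 CPM in Ctrl and 132.6, 122.7 and 123.2 CPM in l-FA. The groups were well apart, and l-FA replicate 1 was the highest of its group. Prdx3 fell by 21.4%, a log2 fold change of -0.35 (SE 0.044, edgeR adjusted p = 0.000878).

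Prdx4 (ENSMUSG00000025289, chromosome X from 154106914 to 154123750), the typical 2-Cys enzyme of the endoplasmic reticulum, where it uses peroxide to drive disulfide formation, had 46.0, 41.4 and 42.9 CPM in Ctrl and 59.5, 56.1 and 59.4 CPM in l-FA. Each l-FA library exceeded each Ctrl library by more than the range within either group. It rose 1.34-fold, the largest rise among the 10 genes, with a log2 fold change of 0.43 (SE 0.054, edgeR adjusted p = 0.000892).

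Prdx5 and Prdx6, the peroxiredoxins outside the typical 2-Cys class, both fell. Prdx5 (ENSMUSG00000024953, chromosome 19 from 6884065 to 6887474), an atypical 2-Cys enzyme found in several compartments, had 135.8, 143.9 and 145.6 CPM in Ctrl and 99.9, 111.3 and 96.4 CPM in l-FA. No l-FA library came near the Ctrl libraries. Prdx5 fell by 27.7% (log2 fold change -0.47, SE 0.060, edgeR adjusted p = 0.000961). The gene overlaps Trmt112 by 409 bases, and Trmt112 had 283 to 310 counts in Ctrl and 280 to 337 in l-FA.

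Prdx6 (ENSMUSG00000026701, chromosome 1 from 161067682 to 161078789), the 1-Cys enzyme, which draws on glutathione and can reduce phospholipid hydroperoxides, had 440.2, 447.1 and 463.1 CPM in Ctrl and 345.4, 342.2 and 348.4 CPM in l-FA. The l-FA libraries lay close to each other and far below Ctrl. Prdx6 fell by 23.3% (log2 fold change -0.38, SE 0.025), and its edgeR adjusted p of 7.18e-05 was the lowest of the 10 genes.

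Txn1 (ENSMUSG00000028367, chromosome 4 from 57943373 to 57956411), the cytosolic thioredoxin that restores oxidized 2-Cys peroxiredoxins, had 160.9, 140.2 and 163.9 CPM in Ctrl and 141.2, 137.2 and 135.7 CPM in l-FA. The groups overlapped because Ctrl replicate 2 lay just below l-FA replicate 1. The log2 fold change was -0.17 (SE 0.061, interval -0.31 to -0.02), with an edgeR adjusted p of 0.0601. Without Ctrl replicate 2, Txn1 passed at a log2 fold change of -0.24 and an adjusted p of 0.00357, and DESeq2 with all libraries gave an adjusted p of 0.013. Ctrl replicate 2 thus held the highest Prdx1 and the lowest Txn1 of its group.

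**Figure D3:**
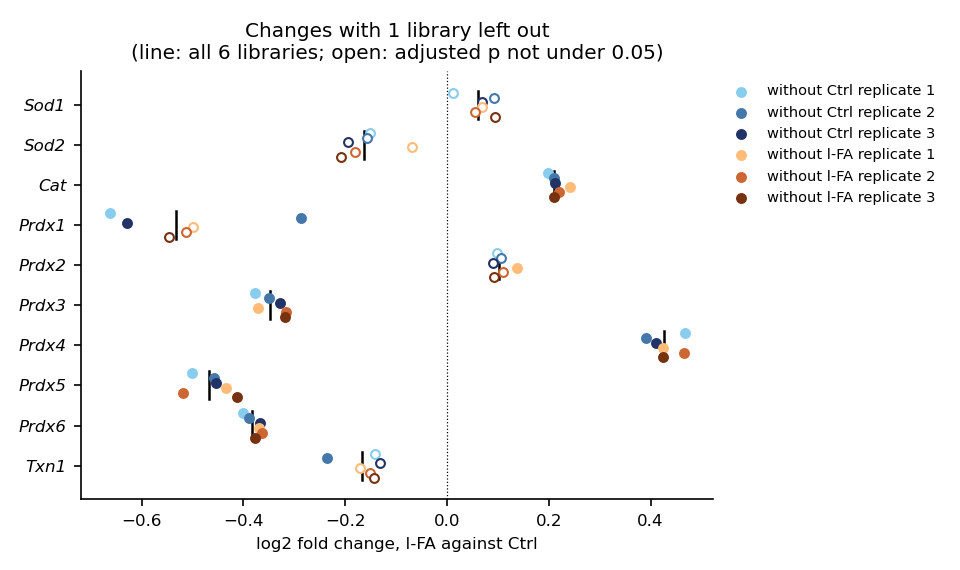
The log2 fold change of each gene with each of the 6 libraries left out in turn (circles, filled where the adjusted p stayed under 0.05) beside the value from all libraries (black line). Prdx1 shifts from -0.53 to -0.29 without Ctrl replicate 2, whereas the circles of Cat, Prdx3, Prdx4, Prdx5 and Prdx6 stay filled and close to their lines.

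For 8 of the 10 genes the libraries of the groups did not overlap, 3 with l-FA above and 5 with l-FA below, where 60.3% of all genes tested did not overlap. Cat, Prdx3, Prdx4, Prdx5 and Prdx6 passed under each of the 13 alternative fits, Sod1 and Sod2 under none, and no gene changed direction in any of them. Replicates differed by more than counting error in several genes: of 20 chi-square tests of counts within a group, 10 passed after Benjamini-Hochberg adjustment, in 7 genes. These tests were run on the 10 genes only. Among genes in general, 20.1% to 23.7% exceeded the 95% point of an unadjusted chi-square between 2 libraries of a group. The tests on the 10 genes took the 3 libraries of a group together and were adjusted. The shares are therefore of unlike tests and cannot be set against each other. Added up, the 10 genes held 1755, 1934 and 1819 CPM in Ctrl and 1563, 1586 and 1602 CPM in l-FA, or 0.170% to 0.187% of counts in Ctrl and 0.161% to 0.164% in l-FA. The highest sum belonged to Ctrl replicate 2, the library with the highest Prdx1.

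Levels were compared between genes per length, in FPKM, counts divided by gene length and library total, as deposited by the authors. In Ctrl, Txn1 stood highest at 143 ± 12.6 FPKM (SD, n = 3), followed by Prdx3 at 106 ± 4.20 and Prdx1 at 83.9 ± 22.6, the latter pair with overlapping ranges. Cat (61.8 FPKM), Prdx6 (47.9), Prdx2 (38.3), Prdx5 (34.4) and Prdx4 (17.1) came next, and Sod2 (7.52) and Sod1 (5.71) were lowest, each separated from its neighbour in all 3 libraries. In l-FA, Txn1 (135 FPKM) and Prdx3 (87.6) kept the first places, Cat (75.5) stood above Prdx1 (61.3), and Prdx2 (43.3) stood above Prdx6 (38.8). Prdx5 (26.3 FPKM) and Prdx4 (24.3) had overlapping ranges in l-FA, as had Sod2 (7.08) and Sod1 (6.28). Of the FPKM summed over the 10 genes, Cat made up 11.3% ± 0.223 (SD, n = 3) in Ctrl against 14.95% ± 0.346 in l-FA, Prdx4 3.15% ± 0.260 and 4.81% ± 0.143, and Txn1 26.3% ± 2.70 and 26.7% ± 0.488.

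This order depends on the length that is used. The FPKM of Sod1 rest on 4313 bases and those of Prdx6 on 9135 bases, whereas their principal transcripts in GENCODE M21 have 641 and 2387 bases. Per kilobase of the principal transcript, Prdx6 had the highest mean in both groups, at 188.6 ± 4.92 CPM per kilobase in Ctrl and 145 ± 1.298 in l-FA, although in Ctrl replicate 2 Prdx1 lay above it, at 202 CPM per kilobase. Prdx1 (154 CPM per kilobase in Ctrl) and Txn1 (147) followed, and Sod1 (39.5) stood above Sod2 (17.0). On this scale too Cat moved up, from rank 7 in Ctrl to rank 5 in l-FA, and Prdx2 from rank 4 to rank 2, while Prdx1 went from rank 2 to 4 and Prdx5 from 5 to 7. Genes with overlapping ranges on this scale are not set apart by these ranks, namely Prdx1 with Prdx6, Txn1 and Prdx2 and Prdx3 with Prdx5 in Ctrl, and Prdx2 with Txn1, Cat with Prdx3 and Prdx5, and Prdx3 with Prdx5 in l-FA.

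**Figure D4:**
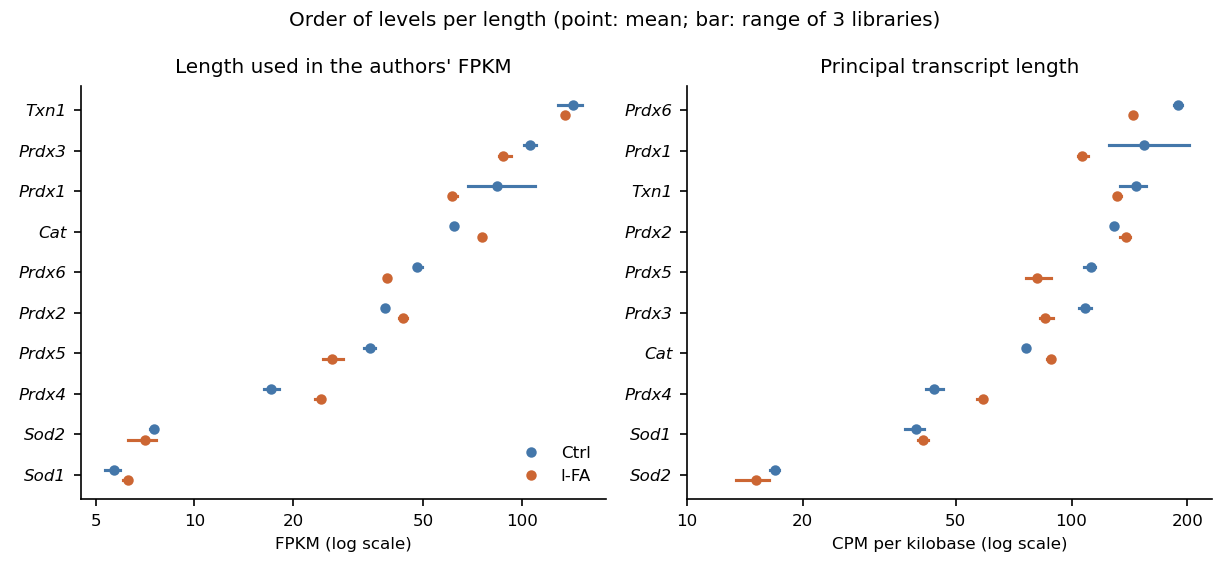
Mean level per length of each gene on logarithmic axes, Ctrl blue and l-FA orange, with bars for the range of 3 libraries, in FPKM (left) and in CPM per kilobase of the principal transcript (right). Txn1 has the highest mean on the left and Prdx6 on the right, and Sod1 and Sod2 are lowest on both, in opposite order.

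Of 38 other genes of superoxide and peroxide metabolism, 35 were tested, and 5 were higher and 13 lower in l-FA at an adjusted p under 0.05. The shares of all genes tested were 25.5% higher and 25.0% lower, and the log2 fold changes of the 35 had a median of -0.10, beside 0.00. Counts of the smaller lists below stand beside the same shares and are not results about a list. Sod3, which encodes the secreted superoxide dismutase, had between 2 and 5 counts in a library and, like Gpx8 and Foxo4, was too low to be tested. Of this list 1 gene passed with a rise above 2-fold, Msrb3, and 4 with a fall above 2-fold, Gpx3, Gsr, Msrb1 and Nxn. Among all 16520 genes tested, 1103 rose and 843 fell past these limits, 11.8% in either direction.

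Among direct partners of the peroxiredoxins and dismutases, Txn2 passed the test and Txnrd1, Txnrd2, Srxn1 and Ccs did not. Of all genes tested, 50.5% passed. Of the mitochondrial thioredoxin and the thioredoxin reductases, 1 of 4 passed, Txn2, which restores Prdx3. Txn2 had 108, 111 and 113 CPM in Ctrl and 92.0, 96.6 and 104 CPM in l-FA. All of l-FA lay below all of Ctrl, by a log2 fold change of -0.18 (SE 0.051, edgeR adjusted p = 0.0232), and the call was lost, at adjusted p-values from 0.0509 to 0.0809, without Ctrl replicate 2 or 3 or l-FA replicate 1 or 2. The cytosolic reductase gene Txnrd1 had 212 ± 8.77 CPM (SD, n = 3) in Ctrl against 207 ± 5.99 CPM in l-FA, and the mitochondrial Txnrd2 50.8 ± 5.25 and 47.5 ± 3.44. Their log2 fold changes of -0.03 (interval -0.13 to 0.06) and -0.10 (interval -0.31 to 0.12) did not pass. Srxn1, which encodes the sulfiredoxin that repairs overoxidized peroxiredoxins, had a log2 fold change of -0.06 (interval -0.22 to 0.10). Ccs, the copper chaperone of Sod1, lay at 38.3 CPM in both groups, with a log2 fold change of -0.00 (interval -0.14 to 0.14), the sign of which turned under other scalings and filters.

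Txnip encodes the thioredoxin-interacting protein, an inhibitor of thioredoxin. It had 340, 262 and 211 CPM in Ctrl and 494, 494 and 295 CPM in l-FA. The groups overlapped, since l-FA replicate 3 lay below Ctrl replicate 1. The log2 fold change was 0.66 (SE 0.25, interval 0.07 to 1.25, edgeR adjusted p = 0.0632). It passed without Ctrl replicate 1 (0.85, adjusted p = 0.0405) and without l-FA replicate 3 (0.88, adjusted p = 0.0133). Of the 7 thioredoxin-like and thioredoxin-binding genes, Txnip included, none was higher and 3 were lower at the threshold in edgeR. The largest fall among them was in Nxn, which encodes nucleoredoxin, from 17.8 ± 0.817 CPM to 8.25 ± 0.613 (log2 fold change -1.10, SE 0.085, adjusted p = 0.000125).

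The 8 genes that passed with a log2 fold change of at least 0.5 in size were Nxn, Sesn1, Foxo1, Gpx3, Gpx7, Gsr, Msrb1 and Msrb3. The last 5 belong to the glutathione and methionine sulfoxide branches. Of the 35 genes tested, these branches held 4 glutathione peroxidases, 5 glutaredoxin and glutathione reductase genes and 4 methionine sulfoxide reductases. The share of all genes past this limit was not counted, so these 5 are not read as a result about the branches. Gsr, which encodes glutathione reductase, had 303, 306 and 303 CPM in Ctrl and 115, 111 and 112 CPM in l-FA. The groups were far apart and the libraries of a group almost equal, and Gsr fell by 1.43 on the log2 scale (SE 0.025, edgeR adjusted p = 9.65e-07). Of the 5 glutaredoxin and glutathione reductase genes 3 were lower and none was higher. Of the 4 glutathione peroxidases tested, Gpx1 and Gpx3 were lower and Gpx7 higher. Gpx4 did not pass, at 53.3 ± 5.15 CPM in Ctrl and 53.1 ± 3.93 in l-FA (log2 fold change -0.01, edgeR adjusted p = 0.953). Gpx3, the secreted enzyme, went from 11.1 ± 1.09 CPM to 1.54 ± 0.154 (log2 fold change -2.85, SE 0.13, adjusted p = 2.16e-05), whereas Gpx7, an enzyme of the endoplasmic reticulum, went from 5.11 ± 0.434 CPM to 8.26 ± 0.402 (0.69, SE 0.10, adjusted p = 0.00162).

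Among 4 methionine sulfoxide reductase genes, which repair oxidized methionine, 2 were higher and 1 was lower. Msrb3 rose from 19.1 ± 0.556 CPM to 45.9 ± 2.06 (log2 fold change 1.26, SE 0.056, edgeR adjusted p = 1.9e-05), and Msrb1 fell from 6.41 ± 0.340 CPM to 2.97 ± 0.118 (-1.11, SE 0.10, adjusted p = 0.000252). Of 4 further genes, Srxn1 and the sestrin genes, 2 were higher, the sestrin genes Sesn1 and Sesn2, while Srxn1 did not pass. Sesn1 rose from 154 ± 5.39 CPM to 227 ± 9.05 (0.56, SE 0.041, edgeR adjusted p = 0.000107).

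Of 6 transcriptional regulators tested, 3 were lower and none was higher in edgeR, where 50.5% of all genes tested passed. The lower ones were Keap1 (log2 fold change -0.19, edgeR adjusted p = 0.00859), Bach1 (-0.44, edgeR adjusted p = 0.016) and Foxo1. Nfe2l2, which encodes NRF2, had 159 ± 7.50 CPM in Ctrl and 165 ± 3.20 in l-FA, a log2 fold change of 0.06 (interval -0.04 to 0.15), and Foxo3, a forkhead factor known for its role in the oxidative defence of HSCs, had 50.04 ± 1.48 and 49.0 ± 1.46 CPM, a log2 fold change of -0.03 (interval -0.14 to 0.08). Neither passed. Foxo1, at a low level, fell from 8.94 ± 1.45 CPM to 5.81 ± 0.392 (log2 fold change -0.62, SE 0.14, edgeR adjusted p = 0.0104).

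**Figure D5:**
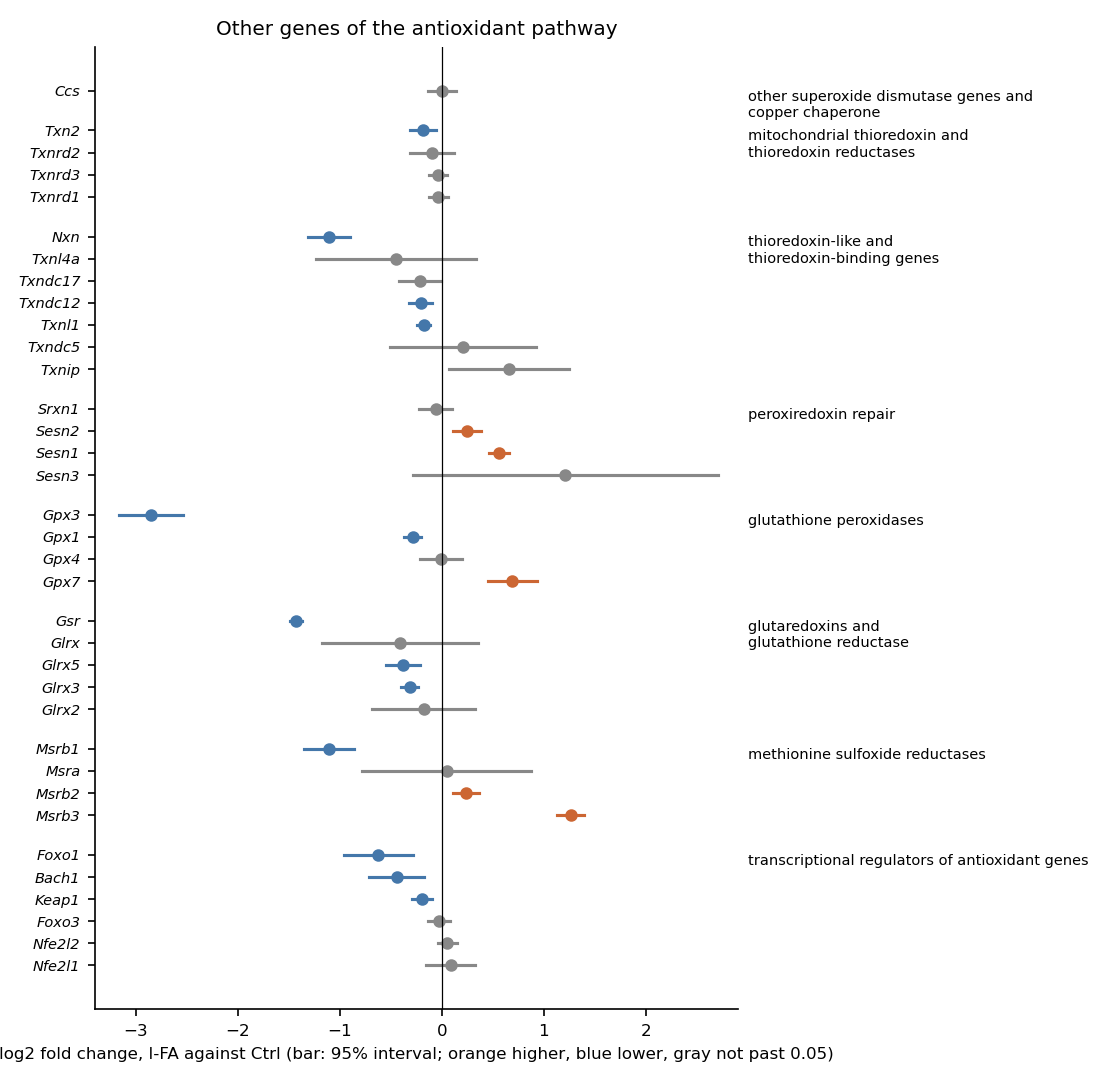
The log2 fold change of the 35 other antioxidant genes tested, l-FA against Ctrl, as points with 95% intervals, grouped by role and colored orange where higher, blue where lower and gray where the adjusted p was not under 0.05. The group labelled peroxiredoxin repair holds Srxn1 and the sestrin genes. Gpx3 and Gsr lie farthest left at -2.85 and -1.43, Msrb3 is the only colored point beyond a log2 fold change of 1 to the right, and Txnrd1, Txnrd2, Srxn1 and Ccs lie near 0.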

How the data were processed

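HSC RNA was amplified with an oligo(dT)-primed single-cell kit and sequenced. Deposited per gene were raw whole-number counts, not normalized, and FPKM the authors derived from them. In 10699 genes with enough counts, the FPKM equalled counts over a gene length and the library total within 0.1%. The submitters' processing notes name HISAT2, SAMtools 1.3.1, StringTie, edgeR and GRCm39. Gene coordinates are those of the deposited table, and promoter coordinates are RefSeq's for GRCm38.p6. The test was edgeR's (version 4.0.16, R 4.3.3; TMM, filterByExpr, glmQLFit, glmQLFTest, Benjamini-Hochberg over 16520 genes), tested on simulated data, with DESeq2 1.42.0 as an alternative. SE is the log2 fold change over the square root of F. Intervals cover 95%. The cDNA was amplified and carried no molecular identifiers, so a count is not an independent molecule. Genes and lists were chosen with earlier results of these data known. Other pathway genes are described if past an adjusted p of 0.05 with a log2 fold change of at least 0.5, or if they are direct partners. A few more are named beside the counts of their lists. Lists for cell markers were hand-written. The alternatives with copies added and with principal transcript lengths (GENCODE M21) were chosen after seeing the data. Authors' comparisons and other assays were not analysed here.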

Additional observations from a re-analysis of the deposited data

How the results depend on the processing

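Of 130 results on the 10 genes under 13 alternatives, 116 kept direction and side of the threshold, 12 lost the call, 2 gained it and 0 turned direction. The counts of 3 higher and 4 lower became 1 and 2 in the test against a 1.2-fold change. With each library left out they ranged from 2 to 3 and from 3 to 5, the other pathway genes from 5 to 6 higher and 11 to 14 lower, and the median log2 fold change from -0.20 to -0.12, the latter without l-FA replicate 1. Without a low-count filter 2 were higher and 3 lower, since Prdx1 (adjusted p = 0.0654, edgeR) and Prdx2 (0.0507) were lost. That filter also moved the whole-table count past 2-fold from 1946 to 3335, and a minimum of 10 counts in every library to 930. Replicate numbers are shared by the groups, but same-numbered libraries did not deviate together (correlations 0.019, -0.013 and -0.050). With the replicate number as a block 2 genes were higher and 3 lower (Prdx1 0.0549 and Prdx2 0.0614, adjusted p from edgeR), Txnip passed (adjusted p = 0.00802, edgeR), and the whole-table counts were 1852 past 2-fold and 7405 without that limit. DESeq2 called 3 higher and 5 lower, Txn1 added. The near-zero log2 fold change of Ccs turned sign with RLE scaling (0.000552), upper-quartile scaling (0.0229), at least 10 counts (0.00636), the block (0.000236) and with single libraries left out (-0.0479 to 0.0304), and never passed. FPKM, which lack TMM scaling, gave higher l-FA over Ctrl ratios, 1.22 for Cat, 1.13 for Prdx2 and 0.81 for Prdx6 against 1.16, 1.07 and 0.767 in CPM. Depth was similar in all libraries, so it does not set the groups apart, and precision rests on 3 libraries a group.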
